A study of Homo sapiens with 9 samples.

Results

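Replication-dependent histone genes encode the bulk histones that package newly copied DNA. They were chosen by name, as the protein-coding genes called H1-1 to H1-6, those whose names start with H2AC, H2BC, H3C or H4C followed by digits, and H4-16, H2BU1 and H2AW. The deposited tables held 68 such genes among the 51105 genes listed in both, and H3C12 was listed in the PABPC table alone. By class, the 69 names were 6 of H1, 17 of H2A, 18 of H2B, 13 of H3 and 15 of H4. RNA had been measured by total RNA sequencing in 3 input libraries, 3 libraries of RNA immunoprecipitated (RIP) with an antibody against PABPN, and 3 with an antibody against PABPC. All 9 came from wild-type HEK293T cells, a line derived from human embryonic kidney, treated with 0.1% formaldehyde for 10 min before lysis, and each lysate was shared between the antibodies. The source is 1 cell line, and no time course or other treatment was part of the design.

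PABPN is the mainly nuclear and PABPC the mainly cytoplasmic poly(A) binding protein, and both coat the poly(A) tails that most messenger RNAs carry. Replication-dependent histone messenger RNAs are the known exception among metazoan messenger RNAs. They are cut just after a conserved stem-loop, which the stem-loop binding protein SLBP holds in place of a tail, and they are made in quantity during DNA synthesis. The comparisons with input ask how far these RNAs were recovered with each protein.

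The letters of the stem-loop are shown because they set these genes apart from other coding genes by sequence. The 200 bases after each stop codon were searched on the coding strand for a stem-loop of 16 bases, written as GG, any 2 bases, CTTT, any 2 bases, AG, any 2 bases and CC. The first 6 bases were also required to pair with the last 6. The search used hg38, the build of the deposited tables, with GENCODE release 44, which held 67 of the 69 genes by identifier and the other 2, H2AC18 and H2AC19, by symbol. The motif was found after 64 of the 69 stop codons. Of all 19919 coding genes searched, 0.336% had it, and only H2AX, H3-4 and H3-7 of those were not on the list. The 5 genes with no match were H2AC11, H2AC15, H2BC10, H3C6 and H4C13. The match began between 22 and 67 bases after the stop codon, with a median of 35. The following sites, from 1 or more genes of each class, have the stem-loop in capitals and 5 bases of flank on either side.
H1-3 (chr6:26234212-26234237, minus strand): taaacGGCTCTTTTCAGAGCCaccca
H2AC17 (chr6:27892699-27892724, minus strand): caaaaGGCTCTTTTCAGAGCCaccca
H2BC6 (chr6:26184205-26184230, plus strand): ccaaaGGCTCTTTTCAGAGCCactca
H3C7 (chr6:26250140-26250165, minus strand): ccaaaGGCTCTTTTCAGAGCCaccaa
H4C4 (chr6:26188710-26188735, minus strand): ccaacGGCCCTTTTCAGGGCCaccta
H4C9 (chr6:27139649-27139674, plus strand): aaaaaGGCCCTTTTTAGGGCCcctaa
H1-1 (chr6:26017032-26017057, minus strand): ccaacGGCTCTTTTAAGAGCCaccta

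The form in H1-3, H2AC17, H2BC6 and H3C7 was the most common, with 40 genes from the classes H1, H2A, H2B and H3. The form in H4C4, which has a longer run of G and C in the stem, was found in 10 genes, all of them H4. The form in H1-1 was found in 9 genes and the form in H4C9 in 4, again all H4. H2AC20 alone had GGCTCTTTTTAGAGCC. The letters AATAAA, the common poly(A) signal, were in the same 200 bases of 7 of the 69 genes and of 18.7% of all coding genes searched. All 69 genes had a single exon in their canonical transcript. On chromosome 6 there were 55 of them, on chromosome 1 there were 13, and H4-16 was the 1 gene on chromosome 12.

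Counts per library were not among the deposited columns. The mean count of a gene in each table is a sum of whole reads, each divided by the size factor of its library, and it was written with 15 digits. The whole reads in the 9 libraries were therefore worked back from the pair of means, and a set of reads was kept only where it held a weight of at least 0.99 among all sets that gave both means. The weight came from an assumed spread between the libraries of a group, for all genes. Recovery succeeded for 32586 genes and for 43 of the 68 histone genes, so every library value below is a reconstruction. The steps of the 3 input libraries were recognised because they are the ones both tables contain. Libraries are called a, b and c within a group, an order with no link to the replicate numbers or between groups. Recovered reads summed to 5692870 to 6380165 per input library, 6737300 to 7377676 per PABPN RIP library and 5458114 to 7400340 per PABPC RIP library, and the recovered genes held 14.1% and 14% of the summed means of the tables. Abundant genes could not be resolved: the 23 histone genes left out had authors' means from 2102 to 13570 in the PABPN table, against at most 3972 for those recovered. The recovered genes therefore lean toward the less abundant members and hold 22.3% of the summed mean of the histone genes in that table. Among cell identity genes, the HEK293T markers NEFM, LIN28B, PAX2 and INA had authors' means of 56817, 9419, 264.9 and 227.6 in the PABPN table, and PTPRC, ALB, HBB and DES, markers of other cell types, were at 12.2 or below.

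The histone RNAs that could be tested were depleted in the PABPN RIP in all 5 classes. Of 27 histone genes that could be tested against input, 26 fell and none rose, where 9.2% of all 9260 genes tested fell and 19.4% rose (limma, adjusted p of at most 0.01 and a log2 change beyond 0.5). The median log2 change was -4.49, or 4.45% of input, against 0.07 for all genes tested and 0.01 for the other coding genes. The range ran from -5.55 for H4C4 to 0.27 for H2BC6, the tested member that did not fall. Genes were tested where their mean over the libraries compared was above 50, with the size factors of the table. On the joint scale 7 of the 27 had a PABPN RIP mean of at most 50. They were H2AC14, H3C6, H3C11, H4C1, H4C9, H4C11 and H4C12. All of these but H3C6 passed only through input, so a fall was in part selected for in them. H3C6 had 82, 54 and 55 PABPN reads over table size factors of 1.131, 1.032 and 1.029, each above 50. Of the 20 genes above 50 on the joint scale, 19 fell. With no such filter, 30 of 43 members fell, beside 3.37% of all 31614 genes. The reads of 9 tested genes, H2AC6, H2AC17, H2AW, H2BC9, H2BC13, H2BC18, H3C4, H3C7 and H4C4, were fixed only with a replicate pattern taken from other members. The spread between their libraries within a group, and so their SE and p-values, rests in part on that pattern. In 26 of the 27 genes all 3 PABPN RIP libraries lay below all 3 input libraries, which was also true of 39.4% of all genes tested. RIP and input RNA came from the same bulk lysates, and counts were scaled by size factors. A fall is therefore relative to other genes and not a measured amount of bound RNA. Normalized counts per library are printed on the joint scale, with size factors over all 9 libraries. Log2 changes against input used the size factors of each table, so counts and log2 changes do not match exactly.

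**Figure D1:**
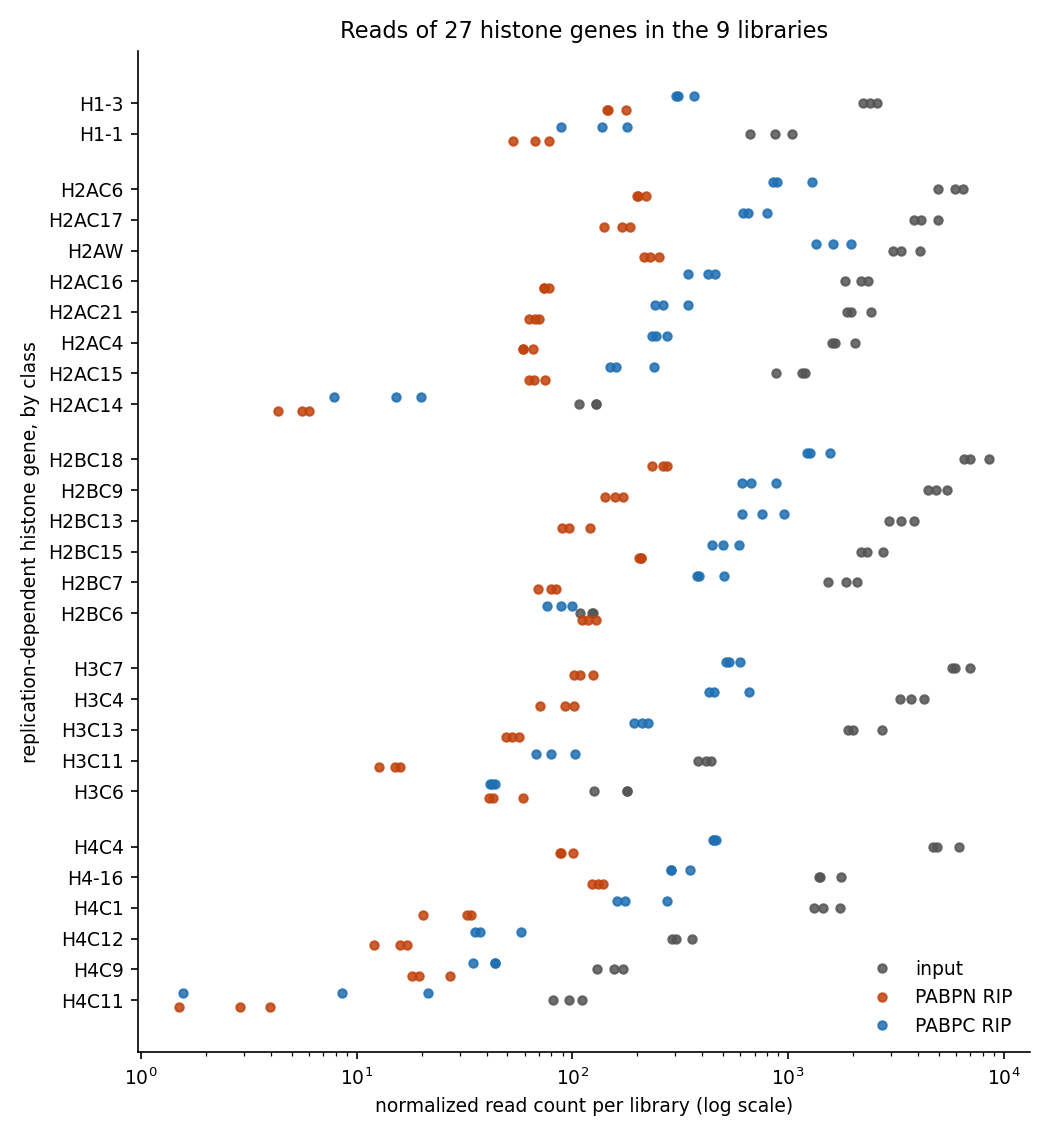
Normalized read counts, scaled over all 9 libraries and drawn on a log axis, for the 27 histone genes tested against input with PABPN, grouped by class. Each point is 1 of 3 libraries of input (grey), PABPN RIP (orange) or PABPC RIP (blue). PABPN points lie to the left of input for all genes but H2BC6, and to the left of PABPC for most.

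The lowest values among the tested genes were those of 1 H3 and 1 H4 gene, both resolved only with the shared pattern. Their SE and p-values thus rest in part on that pattern. Among the 18 genes that did not need it, H4C1 was lowest with PABPN at -5.43 and H3C13 with PABPC at -3.46. H4C1 passed the filter with PABPN only through input, with a PABPN mean of 28.8, and H3C13 was next lowest at -5.08. H3C7, a gene for the core histone H3 with one of the highest levels per length among the tested genes, had normalized counts of 5970, 5775 and 6990 in input, 109, 124 and 102 in the PABPN RIP, and 597, 518 and 532 in the PABPC RIP. The 3 groups did not overlap, and both RIPs lay far below input. The log2 change of H3C7 was -5.53 with PABPN (SE 0.10, limma adjusted p = 2.73e-08) and -3.60 with PABPC (SE 0.12, adjusted p = 4.09e-08). H4C4, which encodes the core histone H4, had the highest input level per kilobase of deposited length among the 27 genes (13060 normalized counts per kb). That rank rests on the deposited lengths. H2BC18 had a higher mean input count, 7335, over a deposited length of 3196 bases, where its canonical transcript has 492. H4C4 had 4679, 4924 and 6185 in input. It had 101, 87.3 and 88.4 in the PABPN RIP and 452, 447 and 462 in the PABPC RIP. Again no library of one group reached the range of another. Its log2 changes were -5.55 (SE 0.12) and -3.62 (SE 0.11), the lowest of the 27 and 26 members tested, with adjusted p = 3.93e-08 and 3.22e-08.

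Other members of these classes kept more of their reads. H4C9 had 130, 156 and 172 in input, 18, 27 and 19.5 in the PABPN RIP and 34.5, 44 and 43.7 in the PABPC RIP. The groups were separate, with log2 changes of -2.53 (SE 0.20) and -1.97 (SE 0.18), the highest of the H4 genes tested. H4C9 passed the filter only through input in both comparisons, so these falls were in part selected for. Over the 5 H3 genes tested the median log2 change with PABPN was -5.08, from -5.53 for H3C7 to -1.48 for H3C6. Over the 6 H4 genes it was -4.31, and of these H4C1, H4C9, H4C11 and H4C12 passed the filter only through input.

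The H2A and H2B genes, whose products pair within the nucleosome, had medians of -4.48 over 8 genes and -4.41 over 6. H2AC17 had the highest input level per deposited length of the 8 H2A genes tested, at 8854 normalized counts per kb. H2AC6 had a higher mean input count, 5774, over a deposited length of 1668 bases. The counts of H2AC17 were 4151, 3822 and 4962 in input, 170, 185 and 140 with PABPN and 797, 653 and 618 with PABPC. H2AC21 had the lowest log2 change with PABPN of these 8, with 1959, 1874 and 2419 in input and 69.7, 62.7 and 67.4 in the PABPN RIP. Its log2 change was -4.68 (SE 0.12, limma adjusted p = 8.3e-08). Among the 6 H2B genes tested, H2BC13 led in input level per deposited length (6908 normalized counts per kb) and had the lowest log2 change with PABPN. H2BC18 and H2BC9 had higher mean input counts, 7335 and 4915, over deposited lengths of 3196 and 2060 bases. More abundant H2A and H2B genes had no recovered reads. H2BC13 had 3344, 2924 and 3845 in input, 121, 96.9 and 89.1 with PABPN and 959, 758 and 614 with PABPC. The 3 groups were again separate, with log2 changes of -4.77 (SE 0.14) and -2.23 (SE 0.18).

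The linker histone genes, whose products bind the DNA between nucleosomes, were represented by H1-1 and H1-3. H1-3 had 2224, 2406 and 2580 normalized counts in input, 146, 177 and 145 with PABPN and 303, 309 and 365 with PABPC. H1-1 had 664, 872 and 1045 in input, 66.8, 77.8 and 53.2 with PABPN and 88.2, 179 and 137 with PABPC. Both were separate from input in both RIPs, and the lowest PABPC library of H1-1 lay close to the highest PABPN library. The log2 changes with PABPN were -3.68 (SE 0.10) for H1-3 and -3.42 (SE 0.18) for H1-1. No test was made between classes, which were compared as medians and ranges.

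Depletion was also measured in the PABPC RIP, where the spread over all genes was wider. Of 26 histone genes tested, 25 fell and none rose, beside 30.9% of the 8539 genes tested that fell and 39.7% that rose. The median log2 change was -2.71, or 15.3% of input, against 0.20 for all genes tested and 0.39 for the other coding genes. All 3 PABPC libraries lay below all 3 input libraries for 26 of 26 genes, and for 34.2% of all genes tested. Class medians were -2.89 for H1, -2.71 for H2A, -2.28 for H2B, -2.98 for H3 and -2.95 for H4. Here 4 of the 26 passed the filter only through input, and of the 22 others 21 fell. With no filter 29 of 42 fell, beside 17.3% of all 30746 genes. The lowest value among the H2B genes tested was -2.88 (SE 0.16) for H2BC9. H2AC14 had -3.16 (SE 0.32), but was one of those that passed only through input, with mean normalized counts of 121 in input, 5.29 with PABPN and 14.3 with PABPC. H1-3 was at -2.98 (SE 0.097) and H1-1 at -2.79 (SE 0.23), and both passed. The comparisons with PABPN and with PABPC share the 3 input libraries, so their values stand side by side and are not independent of each other.

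**Figure D2:**
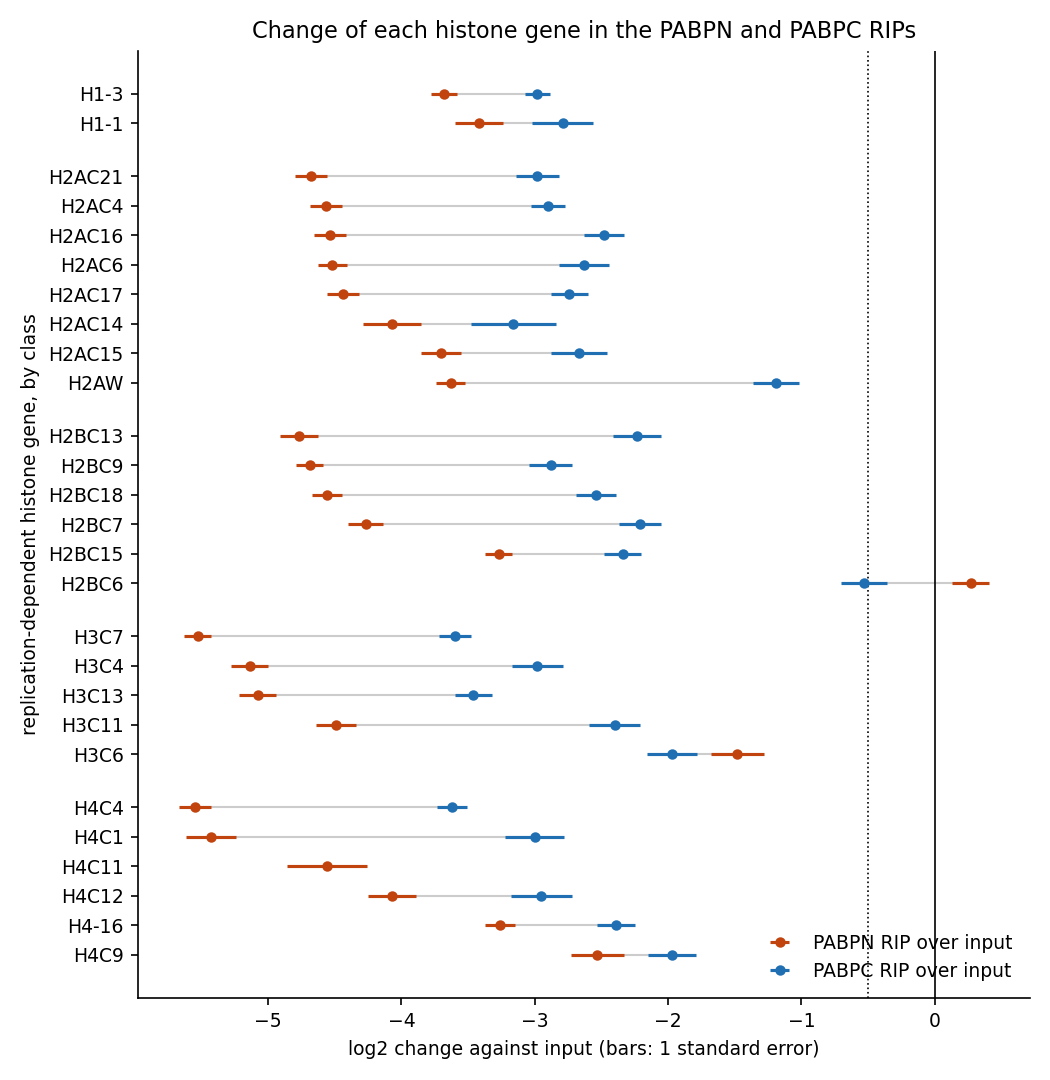
Log2 change of RIP over input for each histone gene, with PABPN in orange and PABPC in blue and bars of 1 standard error, where a grey line joins the values of a gene and the dotted line marks -0.5. PABPN values run from -5.55 to 0.27 and PABPC values from -3.62 to -0.53, with PABPN to the left in all genes but H2BC6 and H3C6.

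**Figure D3:**
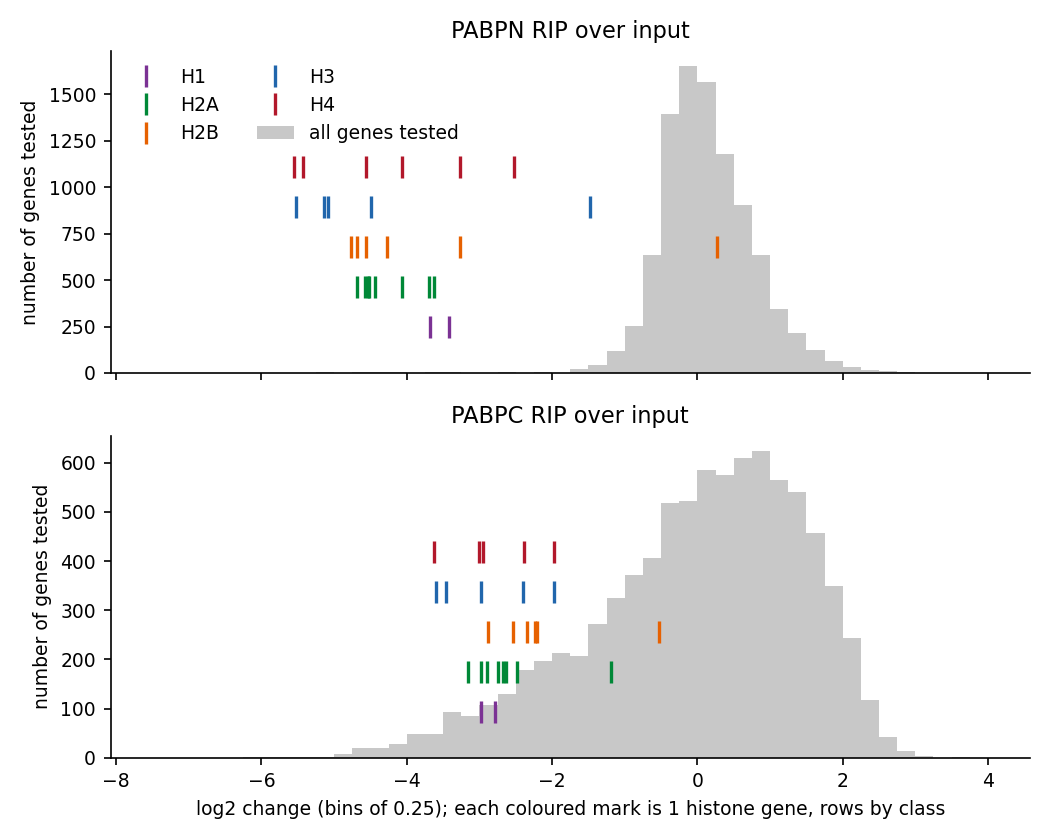
Number of genes tested by log2 change over input, in bins of 0.25, with each histone gene as a coloured mark in a row for its class (the height of a row has no value). The histone medians of -4.49 with PABPN and -2.71 with PABPC lie to the left of the medians of all genes, 0.07 and 0.20.

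H2AW, an H2A gene on chromosome 1 away from the large cluster, was the least depleted of the 8 H2A genes tested in both RIPs. It had 3340, 3049 and 4074 in input, 252, 230 and 214 in the PABPN RIP and 1959, 1623 and 1353 in the PABPC RIP. On the joint scale PABPC libraries were thus at 47.2% of input and PABPN libraries at 6.65%, with no overlap. With the size factors of each table, the log2 changes were -3.63 (SE 0.11, limma adjusted p = 1.79e-07) with PABPN and -1.19 (SE 0.17, adjusted p = 1.36e-04) with PABPC. Its reads rest on a weight of 0.9931 and on the replicate pattern shared by other members.

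H2BC6 stood apart from the other members. It had 108, 123 and 125 normalized counts in input, 111, 129 and 118 in the PABPN RIP and 88.2, 76.6 and 99.9 in the PABPC RIP. Input and PABPN libraries overlapped fully, while the PABPC libraries lay below both. The log2 change was 0.27 with PABPN (SE 0.14, limma adjusted p = 0.133) and -0.53 with PABPC (SE 0.17, adjusted p = 0.0174), and neither passed the adjusted p of 0.01. With size factors computed over all 9 libraries, the PABPN value was 0.01.

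H3C6 had the next highest log2 change with PABPN, while with PABPC H2AW lay above it. It had 126, 180 and 179 in input, 58.9, 42.9 and 41.2 with PABPN and 41.6, 44 and 42.2 with PABPC. Both RIPs lay below input and overlapped each other. It fell by 1.48 with PABPN (SE 0.20, limma adjusted p = 4.03e-04) and by 1.97 with PABPC (SE 0.19, adjusted p = 8.49e-06). On the joint scale its means were 162 in input, 47.7 with PABPN and 42.6 with PABPC. H3C6 passed the filter with PABPC only through input, so that fall was in part selected for. With the size factors of the PABPN table, each of its PABPN libraries was above 50.

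The gene models of these exceptions were long. The deposited length was 2585 bases for H2BC6 and 2679 for H3C6, where a canonical histone transcript has about the length of its coding sequence, such as 470 bases for H2BC6 and 482 for H3C6 in GENCODE. Annotated transcripts of H2BC6 ran to 430 bases past its stem-loop, and H3C6 was among the 5 genes with no motif match, but neither trait was particular to them. Transcripts more than 50 bases past the loop were annotated for 16 members, among them H2AC6, at -4.52 with PABPN, and H2BC18. H2AC15, also with no match, was at -3.70 and passed. Over the 9 members with a deposited length above 1000 bases, the median log2 change with PABPN was -3.27, from -4.69 to 0.27. Over the 18 shorter ones it was -4.55, from -5.55 to -3.42. With PABPC the medians were -2.34 over 9 and -2.95 over 17. Length did not order the members, since H2BC9 at 2060 bases and H2BC18 at 3196 bases had log2 changes with PABPN of -4.69 and -4.56. Reads over introns and exons were counted together by the authors, and the part of model length in these values was not tested.

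**Figure D4:**
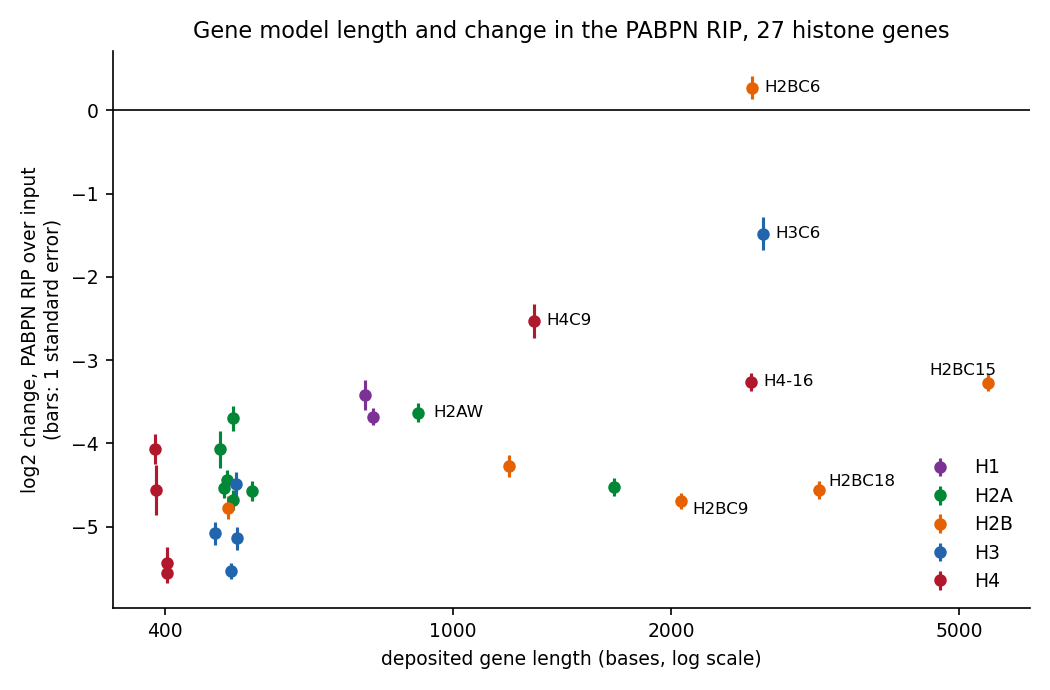
Log2 change of PABPN RIP over input against deposited gene length on a log axis for the 27 histone genes, coloured by class, with bars of 1 standard error. Members under 1000 bases lie between -5.55 and -3.42, and longer ones between -4.69 and 0.27, with H2BC6 and H3C6 uppermost.

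The RIPs also differed from each other. In a fit of all 9 libraries scaled together, 23 of 25 histone genes were lower with PABPN than with PABPC and none was higher, beside 40.6% of 8893 genes tested that were lower and 31.7% that were higher. The filter here was a mean above 50 over all 9 libraries, so genes low in both RIPs could enter through input. H4C9 (means of 21.5 with PABPN and 40.7 with PABPC) and H4C12 (15 and 43.6) were called and under 50 in both. H3C6 was under 50 in both and not called. The median log2 difference was -2.06 for the histone genes and -0.18 for all genes, and -0.49 for the other coding genes. The gap was largest for H2BC13, at -2.90 (SE 0.17, limma adjusted p = 2.43e-08), and for H2AW, at -2.81 (SE 0.15, adjusted p = 9.99e-09). It was smaller for the linker histone genes, at -1.06 (SE 0.12, adjusted p = 6.15e-06) for H1-3 and -0.98 (SE 0.25, adjusted p = 0.00337) for H1-1. The H1-1 call was lost with voom weights (limma adjusted p = 0.0123) and without PABPN RIP library c (0.0141) or PABPC RIP library b (0.0176) or c (0.0134). H2BC6 and H3C6 did not pass, with differences of 0.44 (SE 0.15, adjusted p = 0.0188) and 0.14 (SE 0.20, adjusted p = 0.527). Class medians were -1.02 for H1, -2.06 for H2A, -2.27 for H2B, -2.29 for H3 and -1.46 for H4. Summed over the 27 genes, normalized counts per library were 62976, 58922 and 74941 in input, 2756, 2711 and 2420 with PABPN, and 13166, 10662 and 9976 with PABPC. The sums were thus 4.01% of input with PABPN and 17.2% with PABPC, on the joint scale. They lean on the 9 genes whose reads needed the shared replicate pattern. These had the highest mean input counts of the 27, from 3371 for H2BC13 to 7335 for H2BC18.

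For the 23 abundant members with no recovered reads, the deposited means still give the gap between the RIPs. The input libraries are the same in both tables, and their counts differ there only by the ratio of the size factors. Setting input equal leaves PABPC minus PABPN, up to a small range that depends on which input library held the reads. This gap was above 0 for 48 of the 50 histone genes with a mean above 50, and for 23 of the 23 whose reads were not recovered. Of all 15527 genes with a mean above 50 in the PABPN table, 44.8% lay above 0, and of the other coding genes 51.4%. H2BC6 and H3C6 were the other two. Because input cannot exceed double the mean, the gap is also a lower bound on PABPC as a share of input. The bound ran from 3.97% to 33% over the 48 genes with a median of 8.38%. For all genes with a gap above 0 the median was 48.2%. How far the bound falls short of the PABPC share depends on the PABPN level. The 2 medians are therefore not a like-for-like contrast. Over the members not recovered, the bound ran from 4.38% to 27.1%. Gaps and bounds come from the authors' means and carry no replicate error.

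**Figure D5:**
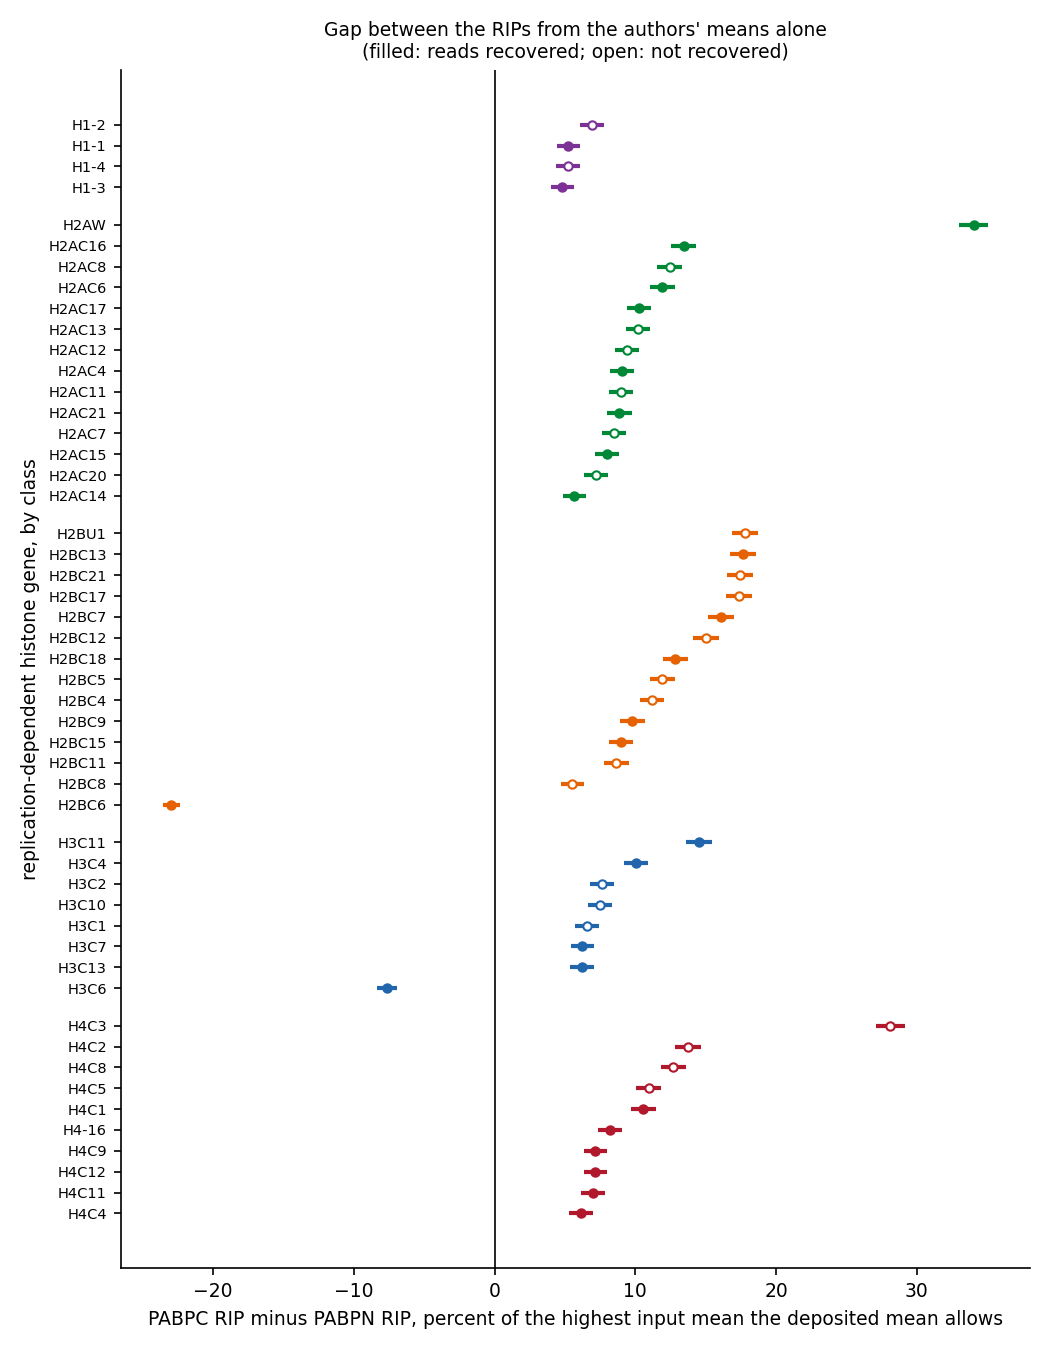
PABPC RIP minus PABPN RIP for the 50 histone genes with an authors' mean above 50 in the PABPN table, as percent of the highest input mean that table allows, with filled points for genes with recovered reads and open points for the rest. Bars span the range left by the input libraries and are not replicate error. H2BC6 and H3C6 lie below 0, and H2AW and H4C3 lie farthest to the right.

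H4C3 had the largest bound among the unrecovered members. Its authors' means were 5973 and 6528 in the PABPN and PABPC tables, so PABPC held at least 27.1% of input, and the gap lay between 3239 and 3481 normalized counts. The most abundant members were the linker histone genes H1-4 and H1-2. Their authors' means were 13570 and 11660 in the PABPN table and 12178 and 10635 in the PABPC table, with bounds of 4.38% and 6.08%. H2BC8 had the lowest bound of the unrecovered H2B genes at 4.69%. The remaining unrecovered members were H2AC7, H2AC8, H2AC11, H2AC12, H2AC13, H2AC20, H2BC4, H2BC5, H2BC11, H2BC12, H2BC17, H2BC21, H2BU1, H3C1, H3C2, H3C10, H4C2, H4C5 and H4C8. By class, the median bound was 4.39% for H1, 8.38% for H2A, 11.9% for H2B, 6.61% for H3 and 8.52% for H4.

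Few reads fell on the other 19 genes. H2AC18 and H3C15 were listed at 0 in both tables, and H3C12 had an authors' mean of 12.76 in the PABPC table. The 16 with recovered reads and no test had between 1 and 236 reads over all 9 libraries, and 7 of them had fewer than 10. H1-6, a linker histone gene of the male germ line, had 78, 49 and 60 reads in input, 5, 8 and 8 with PABPN and 7, 8 and 13 with PABPC. H4C13 had 36 reads over the 3 input libraries, 2 over the PABPN RIPs and 1 over the PABPC RIPs. H4C14 and H4C15 had 13 and 12 reads over input, 14 and 11 over PABPN and 8 and 3 over PABPC, so input and PABPN were close in both. All 75-base windows of the annotated exons of these genes were shared with the other one, and introns were not searched, so their counts are uncertain. All exon windows of H3C15 were shared too, and 99.1% of those of H3C14. For H2AC18 and H2AC19 the shares were 100% and 99.8%, so the low counts of these genes are uncertain as well. Of the genes tested, H4C11 and H4C12 shared 91.4% and 92% of their exon windows with another member and H2AC14 64.2%, so their counts are uncertain. H2AC17 shared 65.9%, most with H3C12, whose annotated span overlaps H2AC17 on the same strand. Those windows can be the same bases of the genome under both annotations. How this overlap affected the counts of H2AC17 was not tested. H1-5 had 3 reads over input and none in the RIPs.

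The genes of histone 3′ end processing were mostly too abundant to recover. All 16 of the list were in the tables and 3 were tested. CSTF2, a cleavage stimulation factor subunit, fell with PABPN by 0.79 (SE 0.099, limma adjusted p = 3.03e-04), and its change with PABPC was 0.00 (SE 0.12). LSM10, a protein of the U7 particle that guides the histone cut, was at -0.58 with PABPN (adjusted p = 0.0115) and rose by 1.89 with PABPC (adjusted p = 1.27e-06). COIL, the Cajal body protein coilin, was at -0.27 and 0.52 and passed in neither. SLBP had authors' means of 2595 and 3992 and no recovered reads.

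Replication-independent histone genes have messages that carry poly(A) tails. Of these, CENPA, the centromeric H3 variant, was at 0.08 with PABPN (SE 0.12, limma adjusted p = 0.592) and rose by 1.52 with PABPC (SE 0.14, adjusted p = 6.95e-06). Of the RNAs without poly(A) tails on the list, RMRP and RN7SL1 had authors' means of 104711 and 65404 in the PABPN table and were not recovered, and RPPH1 and RN7SK were not analysed here.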

How the data were processed

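Per the labels and the study's methods, the authors aligned single-end 75-base reads of ribosome-depleted stranded libraries to hg38 with STAR and counted introns and exons per gene with featureCounts 2.0.2. DESeq2 was then run by them, separately for the PABPN and the PABPC libraries against the same inputs. Each deposited table holds a signal column, which the authors made as the mean over 6 libraries of counts divided by size factors, and a gene length in bases. The tables also hold the authors' own fold changes, standard errors and p-values, which were not used.

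The 1-read steps of each library were taken from the most frequent low means, and reads were recovered by lattice reduction. For genes outside the list with a mean of 400 or more, the assumed spread between libraries was learned from resolved genes. Sets of reads far from that spread were dropped. Agreement between libraries was thus in part selected for, also in the genes behind the shares over all genes. For histone genes the spread between libraries shared by resolved members was used as a prior, and 9 of the 27 tested members needed it. All 42 members resolved again with that prior had the same reads. The prior was drawn from members among these, so the repeat is not an independent check. Recovery and tests were tested on simulated data. The simulated reads followed the same assumed spread, so they do not speak for a member with another pattern, and a few means moved off whole reads were also accepted. The groups of the recovered libraries follow from which tables hold their step, not from a sample label, and the weight and spread limits were settled after seeing the data. Recovered genes with a mean normalized count over 50 were tested with limma 3.58.1 (R 4.3.3, trended variance) on log2(count + 1), so fold changes of low genes are understated. Size factors were those of each table for comparisons with input, and medians of ratios over the 9 libraries otherwise. Calls needed a Benjamini-Hochberg adjusted p of at most 0.01 over all genes and a log2 change beyond 0.5. An exact permutation of 3 against 3 libraries cannot go below p = 0.1. Named members were the lowest, highest and most abundant per deposited length of each class, those not called, and those not recovered. Members and lists were chosen with earlier results of these data known. Alternatives covered size factors, pseudocounts, filters, weights, centring, recovery rules and each library left out. Genes whose reads were not recovered entered no test. The other replication-independent histone genes of the list are not reported here.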

Additional observations from a re-analysis of the deposited data

How the results depend on the processing

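No paired analysis was possible because the recovered libraries carry no replicate numbers. The counts of 26, 25 and 23 lower members (PABPN over input, PABPC over input, PABPN over PABPC) stayed within 1.5 times under all settings but one, and direction was kept in all class and member medians. Without the shared replicate pattern, a choice made after seeing the data, 17, 16 and 14 members were lower, because fewer members were tested (18, 17 and 16). Leaving out 1 library gave 25 to 26, 24 to 26 and 22 to 23 lower members and medians from -4.54 to -4.35, -2.89 to -2.59 and -2.14 to -1.95.

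Other size factors moved the median of all genes with PABPN from 0.07 to -0.20 and turned 852 lower and 1794 higher calls into 2006 and 1055, and the member median was -4.72 (H2A -4.74, H2B -4.67, H3 -5.34). For PABPN over PABPC they gave -2.34 (H2A -2.34, H2B -2.56, H3 -2.57). A pseudocount of 5 gave -4.23 with PABPN (H4 -3.73). A filter over 200 gave H4 -5.43 with PABPN, H3 -3.22 with PABPC and H4 -2.29 between the RIPs. With no filter the medians were -3.42 with PABPN (H2A -4.25, H2B -3.19, H3 -3.37, H4 -3.18), -2.38 with PABPC (H3 -2.19, H4 -2.67) and -1.29 between the RIPs (H2B -1.49, H3 -1.72, H4 -0.90), since low members entered.

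Without the shared pattern the medians were -4.07 with PABPN (H2B -3.27, H3 -4.49) and -1.42 between the RIPs (H2B -1.29, H3 -1.97), and with PABPC H3 was -2.40 and H4 -2.67. A stricter limit on the weight, also chosen later, gave -4.17 with PABPN (H2B -3.77, H3 -4.79), -1.71 between the RIPs (H2B -1.85), and H3 -2.69 and H4 -2.67 with PABPC. Leaving out 1 library gave -3.21 to -2.85 for H3 and -3.24 to -2.82 for H4 with PABPC, both lowest without PABPC RIP library a. Class medians with 1 library left out stayed within -5.15 to -3.47 with PABPN, -3.24 to -2.17 with PABPC and -2.37 to -0.92 between the RIPs.

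H3C6 between the RIPs, never called, turned to -0.13 with other size factors and ran from -0.02 to 0.24 with 1 library left out, lowest without PABPN RIP library a. The call of H1-1 between the RIPs was lost with voom weights (limma adjusted p = 0.0123), without PABPN RIP library c (0.0141) and without PABPC RIP library b (0.0176) or c (0.0134), and with a limit of 1 on the log2 change. H4C9 lost it without PABPN RIP library a (0.0105) and with that limit. All other member calls kept their side under the settings run. Depth limits the low members, and abundance limits recovery: 23 of the 50 members with means above 50 have no library values.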
